A study of Absidia caerulea with 2 samples.

Results

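Transcript clusters that were at least 2-fold more abundant after a steroid was given to a filamentous fungus are described here. A cluster is the set of features that a transcriptome assembler built from 1 connected group of sequences, and a feature is an assembled gene with an identifier of its own. Members were chosen on these same libraries. A cluster was taken where its expected counts summed to 100 or more over both libraries and where its CPM (counts scaled to the library total), with 3 counts added to each sum, was at least 2-fold higher with the steroid. The rule gave 102 member clusters, holding 175 features, out of 8605 clusters with enough counts and 34166 clusters in all. These are 1.19% of the clusters compared. Because the rule used this contrast, the ratios below describe the members and test nothing.

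The RSA library came from mycelia of wild-type Absidia caerulea, strain AS3.65, held for 2 h in 30 ml of potassium phosphate buffer with 170 mg/L of 11-deoxycortisol 21-acetate (RSA) in N,N-dimethylformamide. The mock library came from mycelia of the same strain held for the same time in the same buffer with an equal volume of that solvent alone. Both sets of mycelia had first been grown in potato dextrose broth, so growth medium was absent from both during the exposure. There was 1 library of each kind, with 8923379 counts for RSA and 8904820 counts for mock, so no value carries a replicate error and no test between conditions was possible. A single pair of libraries compares these 2 cultures, and a difference between cultures and an effect of RSA cannot be told apart. Nor can more cells using a gene and more RNA per cell.

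Fungi of the order Mucorales, to which Absidia belongs, oxidise steroids that they take up from the medium. In filamentous fungi such steps are commonly carried out by membrane-bound cytochrome P450 enzymes, which receive electrons from NADPH through a cytochrome P450 reductase. Many of these hydroxylation activities are inducible, which means that they become strong only after the fungus has met the substrate. An 11β-hydroxylase adds a hydroxyl group to 11-deoxycortisol and so makes hydrocortisone, a glucocorticoid drug. The series title names the search for that hydroxylation system in this fungus, and the libraries set mycelia with its substrate beside mycelia without it. The files pair the assembly identifiers with no gene name, protein or sequence. Roles are therefore not given for any member, and members other than 2 are described by the length of their leading feature, the one with most counts.

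Most clusters differed little between the libraries. With 3 counts added, 93.3% of the 8605 clusters differed by less than 1.5-fold between RSA and mock, and the ratio's 1st and 99th percentiles were 0.558 and 2.13. The median log2 ratio was 1.82 for the members and -0.05 for all clusters compared. Together the members took 3.56% of the RSA counts, against 0.670% of the mock counts. In TPM, a level corrected for transcript length, they reached 10756 TPM with RSA, against 1988 TPM in mock.

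**Figure D1:**
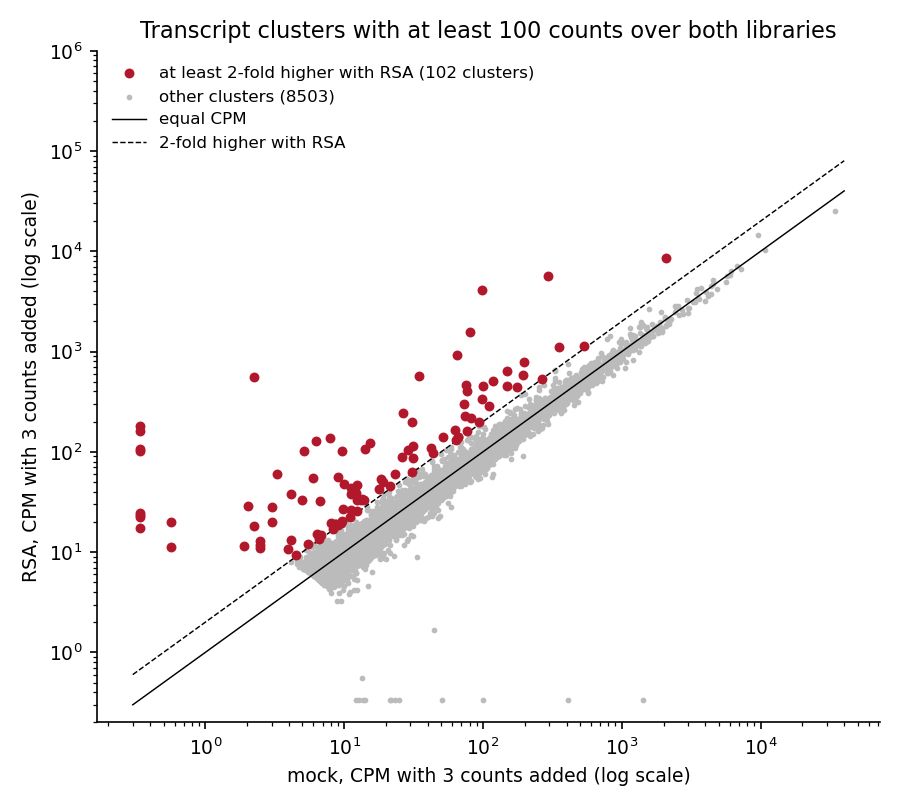
CPM with 3 counts added in the RSA library (vertical, log scale) and in the mock library (horizontal, log scale) for the 8605 clusters with at least 100 counts, 1 point per cluster. The 102 members, in red, lie above the dashed 2-fold line by the rule, and 8 of them form the column at the left edge, where mock had 0 counts.

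The size of the difference was graded among the members. Of the 102, 55 were 2- to under 4-fold higher, 25 lay at 4- to under 10-fold, and the remaining 22 at 10-fold or more. The 47 members at 4-fold or more are 0.546% of the clusters compared, and the 22 at 10-fold or more are 0.256%. In the opposite direction 47 clusters (0.546%) were at least 2-fold lower with RSA and 14 (0.163%) were at least 10-fold lower. The lead of the 102 members over these 47 varied with abundance. It was absent for sums below 300 counts, with 29 members beside 31 of the lower clusters. Sums from 300 gave 28 beside 12, those from 1000 gave 39 beside 3 and those of 10000 or more gave 6 beside 1. Median sums were 686.5 counts for the members and 193 for the lower clusters. This dependence on abundance was not tested. Between 4-fold and 10-fold the directions differed in form, with 25 clusters higher and 0 lower. TMM scaling gave 26 higher and 0 lower, and DESeq2 size factors gave 25 and 0. Of the 14 lower clusters past 10-fold, 12 had 0 counts with RSA, whereas 8 of the 22 higher ones had 0 counts in mock. This band was chosen after the values were seen, and whether the directions differ beyond the spread between cultures was not tested.

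Most of the counts gained sat in few clusters. The 102 members gained 258331 counts in RSA over mock, and the first 3 held 54.6% of this gain, the first 10 held 73.2% and the first 20 held 85.01%. These are shares of reads, which long transcripts collect in larger number. With gains in TPM, over the 168 clusters past 2-fold on the scale of TPM plus 1, the first 3 held 23.3%. Both the measure and the set of clusters differ there from those of the 54.6%. By size of ratio, the 22 members past 10-fold held 48.5% of the gain, the 25 at 4- to 10-fold held 34.8% and the 55 at 2- to 4-fold held 16.7%.

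**Figure D2:**
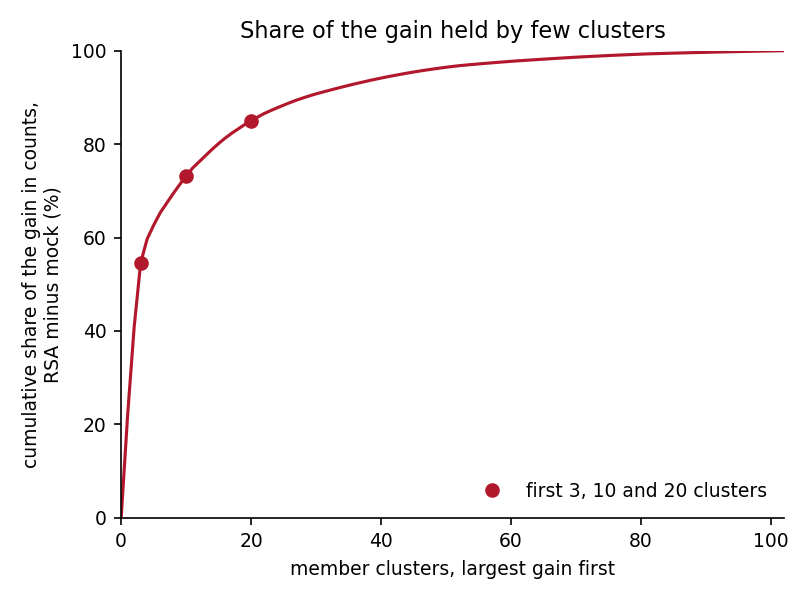
Cumulative share of the counts gained by the members (RSA minus mock, percent) against the number of clusters, largest gain first. The points mark 3, 10 and 20 clusters at 54.6%, 73.2% and 85.01%, after which the curve rises more slowly.

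TRINITY_DN13422_c0 had the largest gain. This cluster of 1 feature, 5324 nucleotides (nt) long on average over 2 transcripts, had 75694 counts with RSA (95% Poisson interval 75156 to 76235), against 18588 in mock (18322 to 18857). Its CPM ratio was 4.06, with a 95% counting interval of 3.999 to 4.13 (exact conditional binomial, as for every interval of a ratio below). It was already abundant without the steroid, and its level per length was 1043 TPM with RSA, against 241 TPM in mock. Among all clusters it stood in place 4 by CPM with RSA and in place 42 in mock.

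TRINITY_DN17017_c0 had the second largest gain and the highest level per length of any member. This cluster of 1 feature and 1 transcript, 3437 nt long, had 51021 counts with RSA (50579 to 51466), against 2597 in mock (2498 to 2699). Its level was 1122 TPM with RSA, against 53.8 TPM in mock, and its CPM ratio was 19.6 (18.8 to 20.4). By CPM it stood in place 9 with RSA and in place 652 in mock.

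A cluster of 4549 nt had the third largest gain, with 36419 counts with RSA and 879 in mock, a CPM ratio of 41.3 (38.7 to 44.3). It was the highest ratio among members with more than 17 mock counts. Its level was 592 TPM with RSA, against 13.4 TPM in mock. Both of its features were higher, with 32195 counts with RSA against 656 in mock for the feature of 4549 nt, and 4224 counts with RSA against 223 in mock for that of 4607 nt.

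A group of 4 abundant clusters between 1708 and 1940 nt combined a high level with a difference above 10-fold. The cluster of 1940 nt had 13892 counts with RSA and 718 in mock, a CPM ratio of 19.3 (17.9 to 20.8), and reached 579 TPM with RSA against 28.1 TPM in mock. The cluster of 1874 nt had 8169 counts with RSA and 576 in mock, a ratio of 14.2 (13.0 to 15.4), and reached 409 TPM with RSA against 30.1 TPM in mock. Both were readily counted in mock. These 4 were grouped after their values were seen.

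The cluster of 1708 nt had 5104 counts with RSA and 305 in mock, a ratio of 16.7 (14.9 to 18.8). The fourth, of 1782 nt, differed from these in being nearly silent in mock. It had 5021 counts with RSA and 17 in mock, a ratio of 295 (184 to 506), and its level was 232 TPM with RSA against 0.71 TPM in mock. That ratio was the highest of any member with counts in mock. The sum of this cluster with RSA, 5020.72 expected counts, was not whole, as where reads are divided with other clusters by estimation.

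The remaining members among the 10 largest gains were already expressed in mock. The cluster of 3267 nt had 10006 counts with RSA and 3163 in mock, a ratio of 3.16 (3.03 to 3.29). The cluster of 6087 nt had 7086 counts with RSA and 1747 in mock, a ratio of 4.05 (3.84 to 4.27). Per length, these 2 had levels of 233 and 84.7 TPM with RSA.

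The cluster of 2389 nt had 10033 counts with RSA and 4765 in mock, a ratio of 2.10 (2.03 to 2.18). It lay close to the 2-fold limit, yet at 330 TPM with RSA against 147 TPM in mock it was 1 of only 2 members above 100 TPM in mock. The other was the cluster with the largest gain.

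The 10 members with the highest level per length with RSA included 3 that were in neither the 10 largest gains nor the 10 highest ratios with 3 counts added. A cluster of 839 nt had 248 TPM with RSA and 74.6 TPM in mock, from 2030 and 653 counts, a CPM ratio of 3.10 (2.84 to 3.39). A cluster of 1929 nt had 240.3 TPM with RSA and 52.5 TPM in mock, a CPM ratio of 4.29 (4.04 to 4.56). A cluster of 1344 nt had 236 TPM with RSA and 41.6 TPM in mock, a CPM ratio of 5.32 (4.90 to 5.78). In level per length these 3 stood beside the clusters of 1708 and 1782 nt with RSA, but in mock all 3 were above them.

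**Figure D3:**
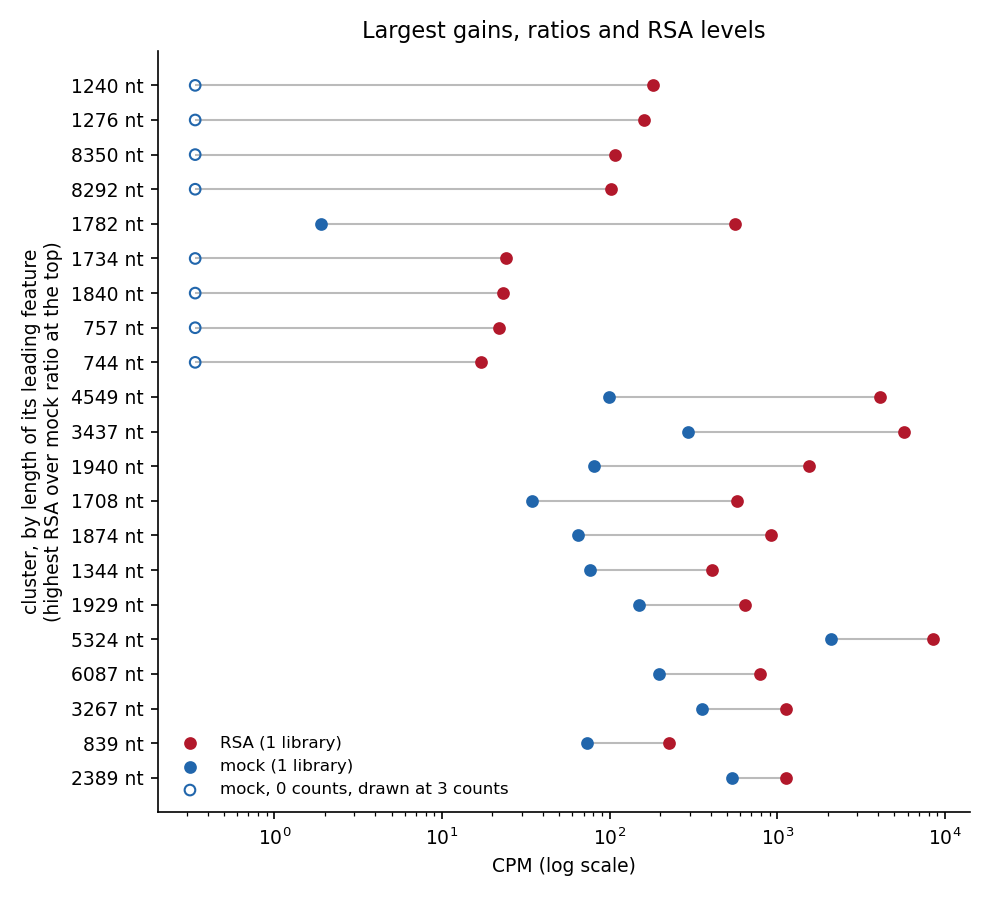
CPM (log scale) in the RSA library (red) and in the mock library (blue) of the 21 clusters with the largest gains, the highest ratios with 3 counts added or the highest TPM with RSA, labelled by the length of the leading feature and ordered by that ratio. Open circles mark 8 clusters with 0 counts in mock, drawn at 3 counts, and the other 13 have filled mock points between 1.91 and 2087 CPM.

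The 8 members with 0 counts in mock took 8 of the first 9 places by the ratio with 3 counts added. That order depends on the added counts, since a ratio over 0 counts has no exact value. A fold against 0 was set against a floor of 3 counts in the mock library (0.337 CPM) and is a bound set by that floor, not by counting error. The 95% counting intervals of these 8 members begin lower, at 436-fold for the first and 40.6-fold for the last. A cluster of 1240 nt had 1615 counts with RSA (116 TPM) and 0 in mock, at least 537-fold higher.

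A cluster of 1276 nt had 1430 counts with RSA (99.4 TPM), at least 476-fold higher than its 0 counts in mock. Clusters of 8350 and 8292 nt had 957 and 912 counts with RSA, at least 318-fold and 303-fold higher than 0 in mock. These long clusters were alike in level too, at 8.24 and 7.91 TPM with RSA. Per length both lay far below the other pair.

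The other 4 had few counts. Single-transcript clusters of 1734 and 1840 nt had 216 and 206 counts with RSA, at least 71.9-fold and 68.5-fold higher than 0 in mock. The last 2 consisted of 8 short features each, with 195 and 152 counts with RSA, at least 64.9-fold and 50.6-fold higher than 0 in mock. All 8 together had 5683 counts with RSA, 2.20% of the members' gain. For these 8, transcripts switched on by the steroid and RNA that only the RSA culture happened to hold cannot be told apart.

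Members with 1 to 3 counts in mock have ratios that counting error leaves wide. A cluster of 1255 nt had 174 counts with RSA and 2 in mock, a ratio of 86.8 (23.7 to 723). A cluster of 2172 nt had 98 counts with RSA and 2 in mock, a ratio of 48.9 (13.2 to 409).

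The other members past 10-fold were of moderate abundance, and each had at least 15 counts in mock. The cluster of 1402 nt had 1139 counts with RSA and 53 in mock, a ratio of 21.4 (16.3 to 28.8). The cluster of 1701 nt had 1228 counts with RSA and 67 in mock, a ratio of 18.3 (14.3 to 23.8). Their levels with RSA were 70.3 and 59.9 TPM, against 3.07 TPM in mock for each.

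The shorter of these clusters reached like ratios. The cluster of 813 nt had 906 counts with RSA and 43 in mock, a ratio of 21.03 (15.5 to 29.3), that of 892 nt had 534 counts with RSA and 26 in mock, a ratio of 20.5 (13.8 to 31.7), and that of 452 nt had 257 counts with RSA and 15 in mock, a ratio of 17.1 (10.2 to 31.0). The cluster of 1033 nt had 904 counts with RSA and 83 in mock, a ratio of 10.9 (8.67 to 13.8). Their counting intervals overlap, apart from that of the 1033-nt cluster against the 813-nt and 892-nt clusters.

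Per length, the members stood higher in the range of expression with RSA than in mock. This follows from the rule, since TPM is computed from the same counts, and the values only describe how far. With RSA 34 members were at 100 TPM or more, against 2 in mock. With RSA 0 members were below 1 TPM, against 12 in mock. None was among the 100 clusters with the highest TPM in either library, and 29 were among the first 1000 with RSA, against 2 in mock. The median level of a member was 44.7 TPM with RSA, against 9.02 TPM in mock, while the median of all clusters compared was 16.3 TPM with RSA and 15.5 TPM in mock. In mock the median level was 10.2 TPM for the members at 2- to 4-fold, 14.2 TPM for those at 4- to 10-fold and 1.73 TPM for those past 10-fold, a band that the ratio itself selects for low mock values.

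TPM depends on very short features in a few members. In 3 members over 50% of the RSA TPM came from features with an effective length under 100 nt, where 1 read is worth many TPM. They are the 2 mock-free clusters of 8 short features, with 157 and 124 TPM from 195 and 152 counts, and a cluster of 352 nt with 111 counts and 97.6 TPM. In 1 further member, counts and TPM gave different answers. This cluster had 130 counts with RSA and 58 in mock, but 5.54 TPM with RSA and 5.64 TPM in mock, because a feature of 302 nt with 2 mock counts held 3.17 TPM there. The other 93 members with counts in mock were at least 2-fold higher by TPM as well. TPM is computed from the same counts, so this is no separate support. In members with counts in mock, the TPM ratio was a median of 1.07 times the CPM ratio.

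Length, which the rule did not use, gave a distribution close to that of all clusters compared. The median length of the leading feature was 1446 nt for the members (quartiles 902 and 2126 nt), 1388 nt for the clusters at least 2-fold lower and 1506 nt for all 8605. By length class, members made up between 0.903% (3000 to under 5000 nt) and 1.71% (under 500 nt) of the clusters compared, except at 5000 nt or more, where 5 of 176 clusters (2.84%) were members. Over all clusters compared the share of members was 1.19%. None of these 176 was at least 2-fold lower, a share of 0% that lies near the 0.546% over all clusters compared. Under 500 nt the lower clusters had the same share as the members, 7 of 410 (1.71%) in each direction. In the class of 1500 to under 2000 nt the 19 members had a median ratio of 9.06, against 3.53 over all members, and 7 of them were past 10-fold. That is 0.424% of the 1650 clusters of this length, against 0.256% of all. The share past 10-fold was higher still at 5000 nt or more, with 2 of 176 clusters (1.14%), and lowest at 2000 to under 3000 nt, with 1 of 1625 (0.0615%). Those 2 are the clusters of 8350 and 8292 nt with 0 counts in mock, whose ratios depend on the added counts. With 5 to 23 members in a class, no test was made of these shares.

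**Figure D4:**
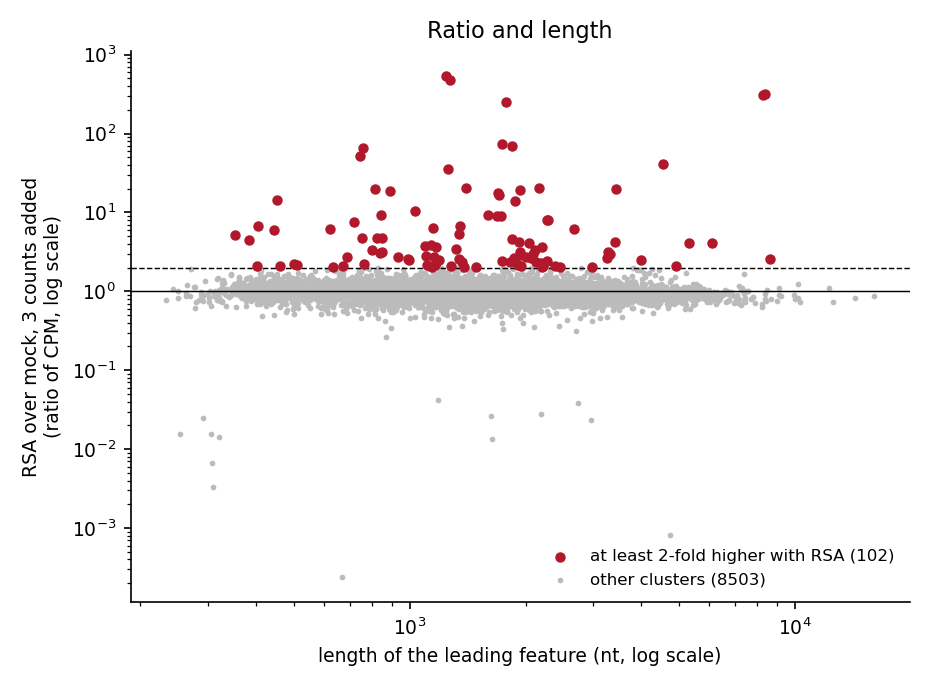
Ratio of RSA over mock with 3 counts added (vertical, log scale) against the length of the leading feature (nt, log scale), 1 point per cluster, with members in red. The members spread over lengths of 352 to 8644 nt, and points between 4-fold and 10-fold occur above the line of equality but not below it.

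Within the member clusters, most features with at least 20 counts were higher with RSA. Of the 102 members, 59 (57.8%) consisted of 1 feature, against 60.3% of all clusters compared, and 43 held several. In these 43 the leading feature held a median of 90.2% of the cluster's RSA counts. It was itself at least 2-fold higher in 39, and in the other 4 its ratio was under 2. Of the 37 further features with at least 20 counts, 33 were at least 2-fold higher, 3 were 1- to 2-fold higher and 1 was lower in RSA. Since the cluster sum was chosen for being higher, and high counts with RSA help a feature to reach 20, these counts describe the members only.

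**Figure D5:**
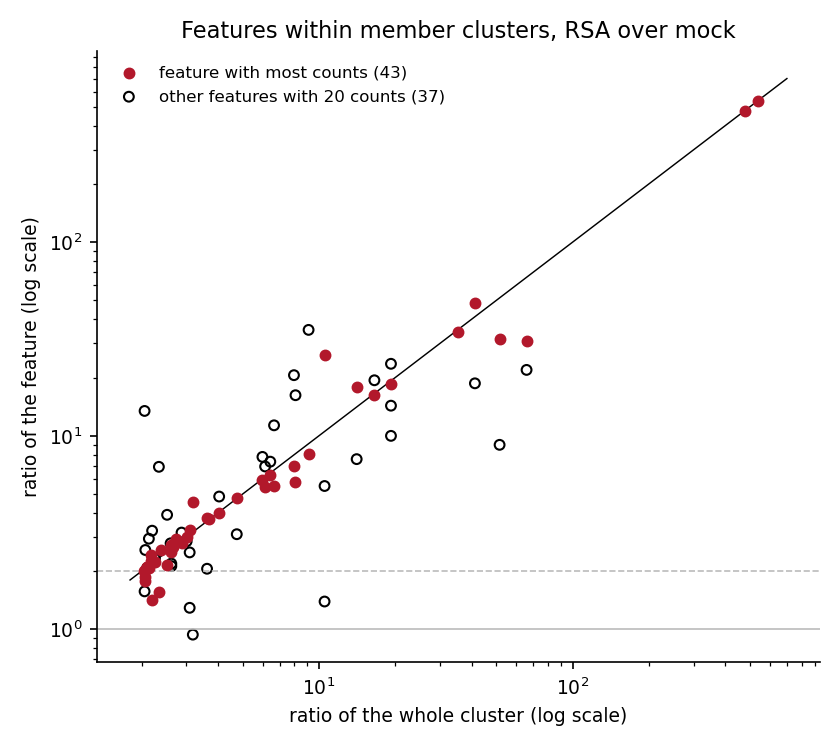
Ratio of RSA over mock with 3 counts added for single features (vertical, log scale) against that of their cluster (horizontal, log scale) in the 43 members with several features. Red points are the 43 features with most counts and open points the 37 others with at least 20 counts, of which 1 lies below the line at equality.

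The second feature can differ in ratio from the first. In the cluster of 1033 nt the leading feature had 787 counts with RSA and 27.2 in mock, whereas a mate of like length had 71 counts with RSA and 50 in mock. In a cluster of 1724 nt the leading feature had 1876 counts with RSA and 230 in mock, and its mate of 1773 nt had 292 with RSA and 5.35 in mock. The 1 mate of at least 20 counts that was lower in RSA had 15.0 counts with RSA and 16.1 in mock. Reads that align to both mates are divided by estimation, so a ratio of 1 mate is less certain than that of the sum.

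Pairs of features within a member were often nearly equal in length. In 31 members the 2 features with most counts each had at least 20 counts, and in 20 of these pairs (64.5%) the lengths differed by 40 to 70 nt. Among all clusters compared, 732 of 2150 such pairs (34.05%) did. The median difference was 57 nt in both sets. This window was chosen after the lengths were seen and was not tested.

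Few members shared reads with other clusters. The expected counts of a cluster's sum were whole to within 0.02 in both libraries for 98 of the 102 members (96.1%), against 98.7% of all clusters compared. Within clusters division was more common, and every feature had whole counts (to within 0.005) in 65 members (63.7%), against 66.6% of all.

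Wider read partitions join clusters whose identifiers share the same DN number. The 102 members lay in 101 partitions. The 1 partition with 2 members held the cluster of 1874 nt and a cluster of 719 nt, which had 943 counts with RSA and 122 in mock, a ratio of 7.71 (6.38 to 9.39). The member partitions held 24 other clusters, 10 of them, in 8 partitions, with at least 100 counts. With 3 counts added, the ratios of these 10 lay between 0.668 and 1.82, with a median of 1.06, all under 2 by the rule. Most member partitions held no other cluster with enough counts, so few could have held a second member.

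Average transcript length could be compared only in member features with several transcripts. RSEM averages a feature's length over its transcripts by their abundance, so a change shows a shift between transcripts of unlike length. Of 32 member features with several transcripts, each counted 20 times or more in both libraries, 2 (6.25%) changed by 10% or more, against 7.55% of 3617 such features in all. Both were shorter with RSA. A feature with 42 transcripts averaged 2270 nt with RSA and 2839 nt in mock, and a feature with 8 transcripts averaged 2122 nt with RSA and 2536 nt in mock. The files give no error for these lengths.

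At the limits of the rule the members passed into the rest without a gap. The 3 members just inside 2-fold had ratios, with 3 counts added, of 2.006, 2.02 and 2.03, and the 3 clusters just outside had 1.996, 1.99 and 1.98. The first of the members had 4747 counts with RSA and 2360 in mock, and the first cluster outside had 155 with RSA and 76 in mock. The 3 members nearest to 100 counts summed to 100, 113 and 114 counts, and the nearest clusters that met the 2-fold limit but had too few counts summed to 91, 91 and 92. The counting interval of the ratio lay wholly above 2 for 76 of the 102 members. All 26 others were in the band of 2- to 4-fold. These intervals use the counts that chose the members and support nothing beyond their precision.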

How the data were processed

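Per the submitters' processing notes, Trimmomatic, Bowtie2 and RSEM 1.2.0 were used. No source used here gives their parameters. The authors deposited, per the file headers, 1 row per assembled feature with an expected count (estimated, shared reads divided among transcripts), TPM, FPKM and average lengths in nt. FPKM was not used. Expected counts were summed per cluster (identifier without the final g number), divided by library totals and compared after 3 counts were added. Sums were rounded for exact intervals at the 95% level, which cover counting error only. With 1 library per group there was no replicate spread, no test and no p-value. The members and all summaries were chosen with earlier results of these data known. Clusters with the 2 largest gains in CPM are identified by name, and the 10 largest gains, ratios and TPM values were the rule for those described. Alternatives changed scaling (edgeR 4.0.16, DESeq2 1.42.0), count minimum, added counts, fold limit, unit summed and scale. The rule was tested on data simulated with counting error alone. That cannot show how often spread between cultures would give members. Python 3.11.15, numpy 2.4.6, pandas 2.3.3, scipy 1.17.1, matplotlib 3.10.9 and R 4.3.3 were used.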

Additional observations from a re-analysis of the deposited data

How the results depend on the processing

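The number of member clusters, 102 in the report, was 126 with TMM, 110 with DESeq2 size factors, 115 with upper quartile and 102 without the 20 most abundant clusters in the totals, and all 102 were among those each time. TMM set the RSA library to 0.943 of the mock library. The count minimum moved the number most, but it also changed how many clusters were compared, 8605 in the report. The number was 216 of 12038 clusters at 20 counts, 859 of 32850 at 1 count and 45 of 2609 at 1000 counts. At least 4-fold gave 47 and an interval wholly above 2 gave 76, each of 8605. Single features gave 174 (9961 compared), of which 114 lay in 97 of the 102 members. Wider read partitions gave 93 (8290 compared). TPM plus 1 gave 168, which included 99 of the 102. With 1 and 10 counts added it was 105 and 96. The members' share of RSA counts, 3.56% in the report, was 3.84% with TMM, 3.68% with DESeq2 size factors, 3.70% with upper quartile, 3.61% at 20 counts, 3.65% at 1 count, 3.37% at 1000 counts, 2.77% at 4-fold, 3.39% with the interval above 2, 3.77% for features, 3.50% for partitions and 3.91% with TPM plus 1. The 3 largest gains held 52.2% of the gain with TMM, over its 126 clusters, against 54.6% in the report. With TPM plus 1 the 3 largest held 23.3%, where gains are per length and are taken over the 168 clusters. The number at 4-fold or more was 45 to 63 over its alternatives. No paired analysis was possible because each group had 1 library, and for the same reason no replicate could be left out. Depth limits the members near 100 counts, whose intervals are wide.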
